A study of Homo sapiens with 27 samples.

Results

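The 10 genes described here encode proteins that start and elongate translation or sit at the ends of the mRNA while it is translated: EEF1A1, EEF1B2, EEF1G and EEF2 (elongation), EIF3E, EIF4B, EIF4E and its inhibitor EIF4EBP1 (initiation), PABPC1 (poly(A) binding) and TPT1 (the translationally controlled tumour protein). They were chosen by gene symbol from a table of 13523 genes measured in 501mel cells, a human melanoma line with high MITF, and all 10 were in the table and passed the filter on low values. Most of these mRNAs begin with a terminal oligopyrimidine (TOP) motif, a C at the cap followed by a run of pyrimidines. The kinase complex mTORC1 controls how well TOP mRNAs are translated, in large part through the cap-binding repressor LARP1, and the ribosomal protein genes are the largest class of them. EIF4E and EIF4EBP1 are not classical TOP transcripts: eIF4E binds the cap, and 4E-BP1, the product of EIF4EBP1, holds eIF4E inactive until mTORC1 phosphorylates it. The name TOP is therefore used below for 8 of the 10 genes. The measurement was of mRNA levels and not of translation.

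Unedited (WT) cells were left untreated, or kept for 12 h in HBSS, a saline that holds glucose and lacks amino acids, or for 12 h with 250 nM Torin1, a catalytic inhibitor of mTOR. Cells without TFE3 (TFE3 KO), without TFEB (TFEB KO) or without both (DKO) had a 12 h control and a 12 h treatment with 250 nM Torin1. The labels give 12 h for the knockout controls and no time for the WT controls. Genotype and control handling therefore cannot be told apart where knockout and WT controls are compared, including in the interaction tests. All controls are called untreated below. TFE3 and TFEB are transcription factors of the MITF family that mTORC1 holds in the cytoplasm. Each of the 9 groups had 3 libraries in the labels, but the columns of WT HBSS replicate 3 and WT Torin1 replicate 1 were identical in all 13523 genes and both were left out, so WT HBSS and WT Torin1 had n = 2 and the other groups n = 3. The knockouts were made with Cas9 and each is 1 isolated clone, so its libraries all come from that clone, and clone and genotype cannot be told apart. Nothing in the labels says whether replicate libraries came from separate cultures, and the p-values measure the spread between these libraries.

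The libraries held 4147050 to 6526392 gene-assigned reads, and 3 reads corresponded to a normalised read count of 0.460 to 0.711. The melanoma genes SOX10, MITF and TYRP1 were high in WT control cells (means of 452, 762 and 1334), PTPRC, EPCAM, PECAM1 and CD3E had no row in the table, and the group means of COL1A1 and LUM did not exceed 3.87 and 2.68. TFE3 had a mean of 24.0 in WT control, 6.30 in TFE3 KO and 6.35 in DKO cells. TFEB had a mean of 3.25 in WT control, 1.11 in TFEB KO and 0.661 in DKO cells, and was also low, at 0.681, in TFE3 KO cells, in which that gene was not targeted. In WT HBSS libraries TFEB was far higher, with a mean of 29.2 (log2 2.85 against WT control, limma adjusted p = 4.43e-09). With Torin1, TFE3 had a mean of 19.0 in WT, 10.8 in TFE3 KO and 6.96 in DKO cells, and it rose with Torin1 in TFE3 KO cells (log2 0.68, adjusted p = 0.00102). TFEB with Torin1 had a mean of 4.95 in WT, 1.56 in TFEB KO and 0.648 in DKO cells, but TFEB KO Torin1 replicate 1, at 3.45, lay within the WT control range of 2.34 to 3.96 and below both WT Torin1 libraries. Without that library the members called with Torin1 in TFEB KO cells were 5 instead of 6, and those called between TFEB KO and WT cells under Torin1 were 4 with and without it. Reads at the 3′ end lie outside the edited exon and do not check the edit itself.

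The start sites of the members are shown here because the TOP motif is the feature that names the class. Each line holds 30 bases of GRCh38.p14 from RefSeq, from 15 bases before the annotated start on the strand of the gene, with the pyrimidine run in capitals where a C followed by at least 4 of C or T begins within 2 bases of the start.
EEF1A1: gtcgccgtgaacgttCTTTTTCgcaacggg
EEF1B2, first start: gccggaagtggccccagcctcgaggccggg
EEF1B2, second start: ccggtctcttcgggtCCTTTTTCCTCTCTT
EEF1G: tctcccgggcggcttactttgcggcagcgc
EEF2: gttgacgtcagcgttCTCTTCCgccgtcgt
EIF4B: ttgcctcatccgggtCTTTTgcgttctctt
TPT1: agcggctgagtcggCCTTTTCCgcccgctc
EIF4E: ccttctggagcggttgtgcgatcagatcga
The windows are, in the same order, chr6:73521018-73521047 (minus strand), chr2:206159594-206159623 and chr2:206159880-206159909 (plus), chr11:62573877-62573906 (minus), chr19:3985449-3985478 (minus), chr12:53006441-53006470 (plus), chr13:45341169-45341198 (minus) and chr4:98929119-98929148 (minus). The first 15 bases of each lie in the promoter and the rest in the first exon. EEF1B2 carried the longest run, of 16 bases, which reaches past the end of its window, at the second of its 2 starts and none at the first, and EIF4B carried the shortest, of 5. Of the 7 members searched, 5 had the run, compared with 13.0% of the 27305 genes searched and with 51 of 63 ribosomal protein genes. EIF4E had none, and EEF1G had none at the start given. EIF4EBP1, PABPC1 and EIF3E are named only, and their starts were not searched.

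MITF, TFEB and TFE3 bind the E-box CACGTG, most strongly in the extended form TCACGTGA, and both were searched for on both strands in the 300 bases from 250 before to 50 after each start. CACGTG was found in 2 of the 7 members, EIF4B and EIF4E, and in 8.77% of all genes, and TCACGTGA, which contains CACGTG and is counted in both, in EIF4B and in 1.18% of all genes. The EIF4B match, in capitals, lies 23 to 16 bases before the start (chr12:53006433-53006462, plus strand, GRCh38.p14).
EIF4B: TCACGTGAttgcctcatccgggtcttttgc
A match in these letters is a description of the sequence.

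Of the 8 TOP members, 5 rose and 1 fell in HBSS, where 23.6% of all genes rose and 24.7% fell. With Torin1 4 of the 8 rose in WT, 6 in TFE3 KO, 4 in TFEB KO and 6 in DKO cells and none fell, where 20.5%, 25.4%, 17.4% and 25.4% of all genes rose. EEF2, EIF4B and PABPC1 rose in HBSS and with Torin1 in all 4 genotypes, by 1.22- to 1.81-fold. EIF4E moved the other way and fell in all 5 comparisons, by 1.46- to 2.50-fold. EIF4EBP1 rose with HBSS and fell with Torin1 in all 4 genotypes. EEF1B2 fell in HBSS, and its levels in Torin1 overlapped those of its controls in every genotype. Fold changes here and below are from limma on the log2(value + 1) scale, and a call means an adjusted p under 0.05. In bulk samples, fewer cells of a kind and less RNA per cell cannot be told apart.

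**Figure D1:**
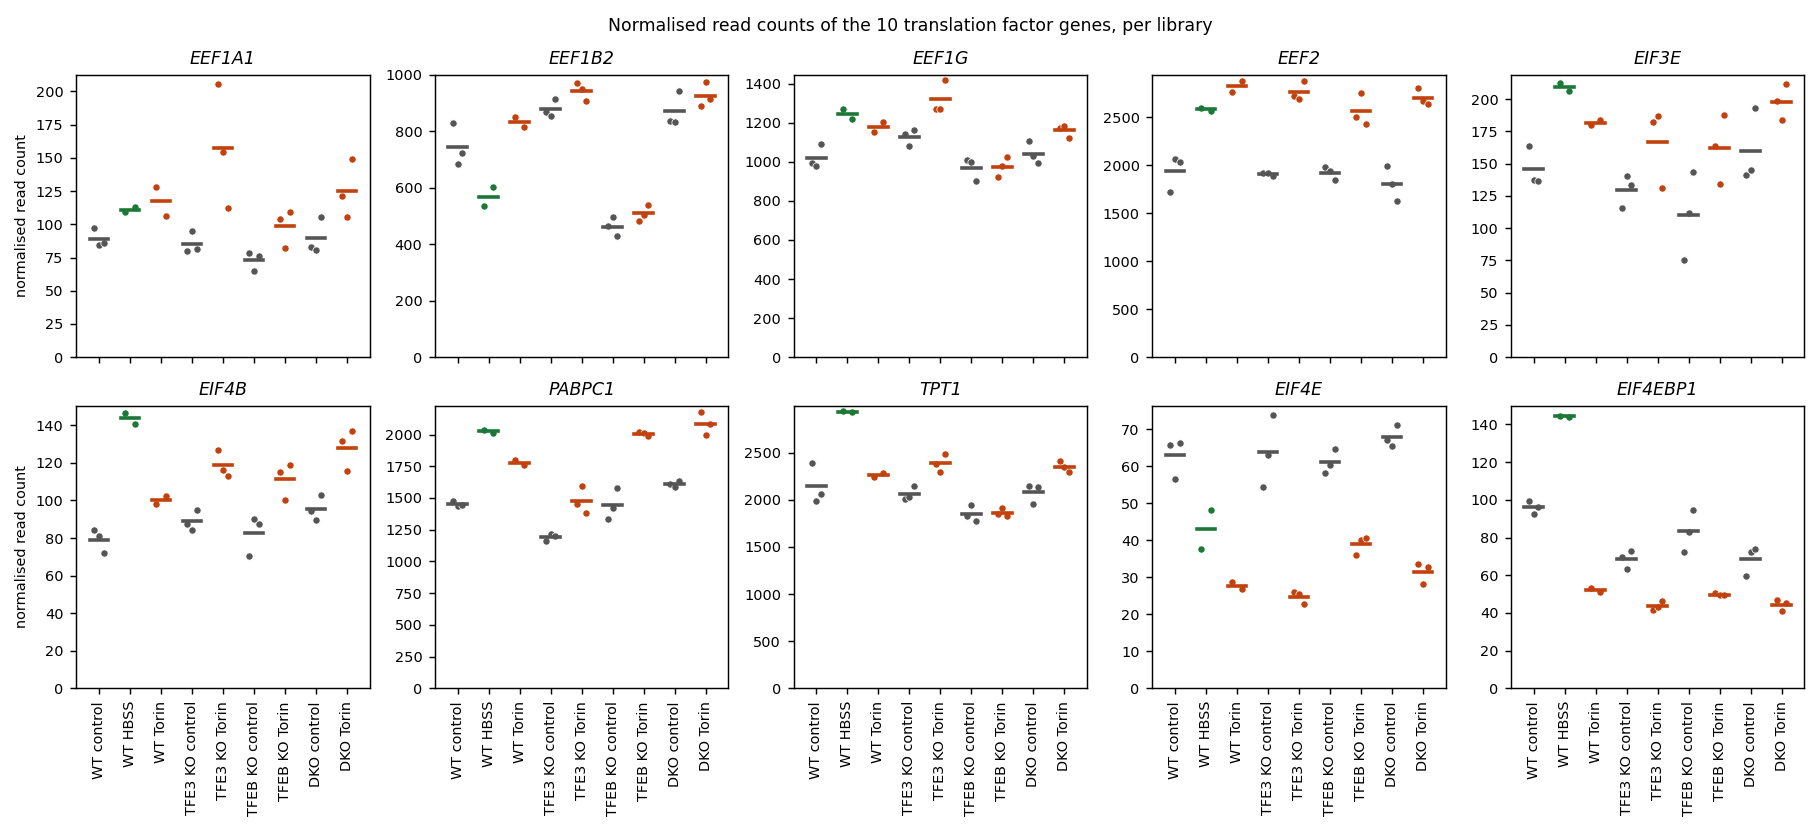
Normalised read counts (y axes, linear from 0) of the 10 genes in each library of the 9 groups (x axes). Points are libraries and bars are group means, with controls in grey, HBSS in green and Torin1 in orange. EEF2 in the Torin1 and HBSS libraries lies at 2434 or above and in the controls at 2067 or below, EIF4EBP1 is highest in HBSS, and EEF1B2 reaches no more than 540.4 in the TFEB KO groups.

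The HBSS comparison asked what 12 h in HBSS does to these mRNAs in WT cells. The study's methods grow the cells in RPMI with serum and do not say that serum was added to HBSS. Loss of amino acids and loss of serum or other parts of the medium cannot be told apart. In it 8 of the 10 members were called, 6 higher and 2 lower, where 48.3% of the 13052 genes tested were called (23.6% higher and 24.7% lower). None of the 10 changed by 2-fold or more, where 13.1% of genes did and were called. EIF4B, whose product assists the helicase of the cap-binding complex, had the largest rise of the 10: it measured 84.3, 81.0 and 71.8 in the WT control libraries and 147 and 141 in HBSS. All HBSS values lay above all controls, a log2 fold change of 0.86 ± 0.10 (SE) and an adjusted p of 1.98e-09. EEF2, the translocase of the elongating ribosome, measured 1717, 2067 and 2036 in control and 2599 and 2569 in HBSS, 1.34-fold higher (log2 0.42 ± 0.07 (SE), adjusted p = 3.27e-06). PABPC1, the cytoplasmic poly(A)-binding protein, went from 1478, 1437 and 1444 to 2038 and 2011, 1.39-fold higher (adjusted p = 3.59e-08). These 3 genes had no overlap between control and HBSS libraries, which was so for 63.1% of all genes tested. TPT1 measured 2386, 1992 and 2061 in control and 2940.3 and 2928 in HBSS, 1.37-fold higher with an adjusted p of 1.07e-07. EEF1G, the structural gamma subunit of the eEF1B exchange complex, measured 993, 979.6 and 1089.7 in control and 1272 and 1221 in HBSS, 1.22-fold higher (adjusted p = 6.04e-04).

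Within the same exchange complex EEF1B2, the subunit that reloads eEF1A with GTP, went down in HBSS. It measured 831, 685 and 723 in control and 534 and 604 in HBSS, 1.31-fold lower (log2 -0.39 ± 0.08 (SE), adjusted p = 5.21e-05). EEF1A1, which brings aminoacyl-tRNA to the ribosome, measured 97.3, 84.1 and 86.3 in control and 109 and 113 in HBSS, and was not called (log2 0.32 ± 0.20 (SE), 95% confidence interval -0.10 to 0.73, adjusted p = 0.205). EIF3E, the e subunit of the scaffold eIF3, measured 163, 137 and 137 and then 212 and 206. The EIF3E groups did not overlap, but its log2 difference of 0.52 ± 0.22 (SE) missed the threshold (adjusted p = 0.0581). Of the 4 elongation factor members, 2 rose, 1 fell and 1 was not called.

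The cap-binding protein and its inhibitor moved in opposite directions in HBSS. EIF4E measured 65.7, 56.6 and 66.4 in control and 37.7 and 48.1 in HBSS, 1.46-fold lower (adjusted p = 3.94e-04). EIF4EBP1 measured 99.6, 92.6 and 96.4 in control and 145 and 144 in HBSS, 1.49-fold higher (adjusted p = 2.24e-05). Neither gene's groups overlapped, and the HBSS libraries held the highest EIF4EBP1 values of all 25 libraries. The EIF4E call rested on both HBSS libraries: without WT HBSS replicate 1 the log2 difference was -0.37 and the adjusted p 0.0565.

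Torin1 inhibits mTOR with amino acids present, and in WT cells 6 members were called, 4 higher and 2 lower, where 43.9% of genes were called (20.5% higher and 23.4% lower). EEF2 rose most, to 2769 and 2884, 1.46-fold above control (log2 0.55 ± 0.07 (SE), adjusted p = 1.82e-08). PABPC1 rose to 1801 and 1758, 1.22-fold above control (adjusted p = 2.92e-04). EIF4B, at 98.0 and 102, and EEF1G, at 1154 and 1206, were 1.27- and 1.16-fold above control (adjusted p = 0.00707 and 0.0132). The last of these calls were narrow: EIF4B was no longer called without WT control replicate 3 (log2 0.27, adjusted p = 0.0510) or WT Torin1 replicate 3 (0.31, 0.0700), and EEF1G without WT control replicate 2 (0.18, 0.0507) or WT Torin1 replicate 3 (0.18, 0.132). TPT1, EEF1B2, EEF1A1 and EIF3E were not called, with log2 differences of 0.08 to 0.39 and adjusted p-values of 0.0869 to 0.317.

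EIF4E was the only member past the threshold with at least a 2-fold change in WT cells, a rule that 9.66% of genes met. It measured 28.6 and 26.8 with Torin1 against 65.7, 56.6 and 66.4 in control, 2.22-fold lower (log2 -1.15 ± 0.13 (SE), adjusted p = 3.35e-10). EIF4EBP1 measured 53.4 and 51.2 with Torin1, 1.82-fold below its control of 99.6, 92.6 and 96.4 (log2 -0.87 ± 0.11 (SE), adjusted p = 1.16e-08). With the duplicated column added as a WT Torin1 library, the EIF4EBP1 difference was -0.43 and no longer called (adjusted p = 0.109). That column measured 132 for EIF4EBP1, nearer the WT HBSS values of 145 and 144 than those with Torin1. It had 12917 genes detected, against 12895 and 12901 in WT HBSS and 13188 and 13181 in WT Torin1 libraries. Its values of EIF4B (137), EIF4E (49.8), EEF1B2 (622), TPT1 (3368) and PABPC1 (2181) were also nearer those of WT HBSS. The WT HBSS means were 144, 42.9, 569, 2934 and 2024, and the WT Torin1 means 100, 27.7, 834, 2267 and 1779. EIF3E, at 179, was nearer WT Torin1 (mean 182, against 209 in WT HBSS). EEF2 (2944) and EEF1G (1346) lay above both groups and EEF1A1 (90.9) below both. Which of the treatments the column holds was not tested.

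HBSS and Torin1 share the WT controls, so they were set against each other directly. In that comparison 6 members differed, where 49.2% of genes did. EIF4EBP1 was 2.73-fold higher in HBSS than with Torin1 (log2 1.45 ± 0.12 (SE), adjusted p = 8.33e-14), the one member past the 2-fold rule, which 16.6% of genes met. EIF4E was 1.52-fold higher in HBSS (adjusted p = 3.75e-04), EIF4B 1.43-fold higher (adjusted p = 2.06e-04) and TPT1 1.29-fold higher (adjusted p = 2.99e-05). EEF1B2 was 1.47-fold lower in HBSS (adjusted p = 6.63e-07). With the duplicated column as a Torin1 library the calls of EIF4E (log2 0.33, adjusted p = 0.178) and TPT1 (0.18, 0.226) were lost. PABPC1, 1.14-fold higher (adjusted p = 0.0290), lost its call without any 1 of the 4 libraries (log2 0.17 to 0.20, adjusted p = 0.0684 to 0.138) and with each rescaling or count test tried. With every library rescaled to the same total EEF2 was called instead of PABPC1, lower in HBSS (log2 -0.28, adjusted p = 0.00341), so that 4 members were higher and 2 lower instead of 5 and 1. On the deposited scale the 95% confidence interval of the log2 difference was -0.29 to 0.03 for EEF2 and -0.53 to 0.38 for EEF1A1.

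**Figure D2:**
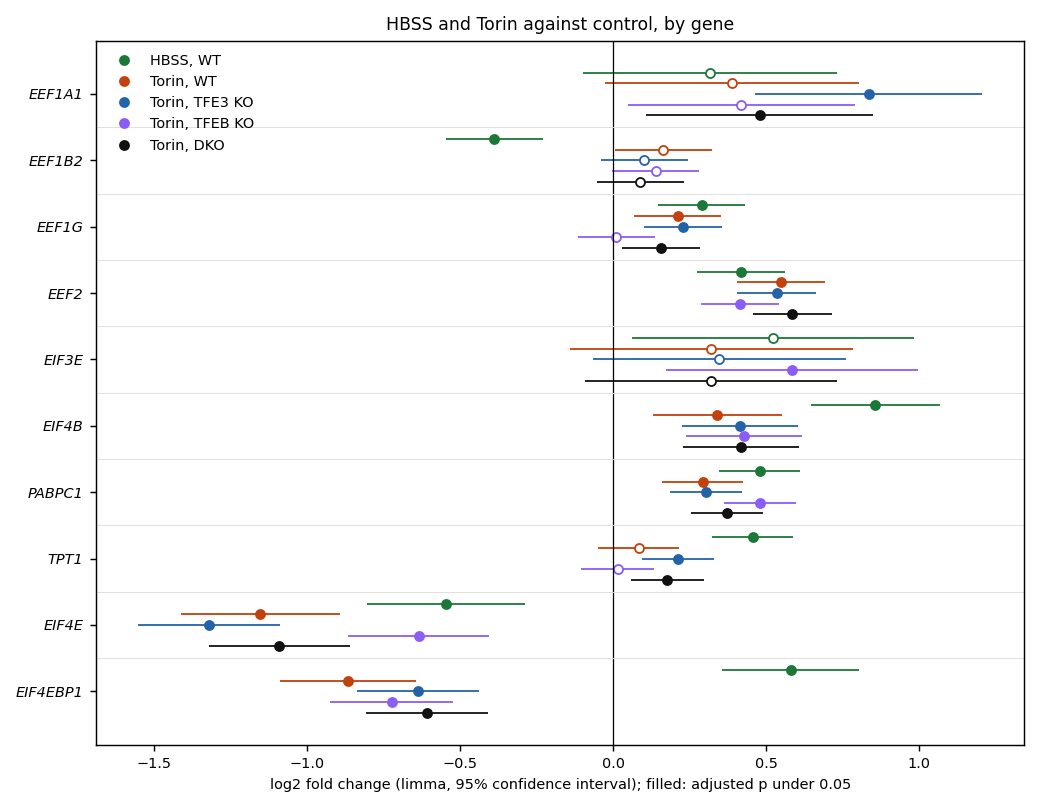
Log2 fold changes (x axis) of the 10 genes (y axis) in HBSS or Torin1 against the control of the same genotype, with 95% confidence intervals from limma and filled symbols at an adjusted p under 0.05. EIF4E lies left of 0 in all 5 comparisons, EIF4EBP1 lies right of 0 in HBSS and left of it in the 4 Torin1 comparisons, and EEF2, EIF4B and PABPC1 lie right of 0 throughout.

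The knockout comparisons asked whether TFE3 or TFEB is needed for the Torin1 response. In TFE3 KO cells 6 members rose and 2 fell, against 25.4% and 26% of all genes (51.4% in either direction). In TFEB KO cells 4 rose and 2 fell (38.3% of all genes called, 17.4% higher and 21% lower), and in DKO cells 6 rose and 2 fell (51.6%, 25.4% higher and 26.2% lower). EEF2 rose from 1921, 1917 and 1887 to 2723, 2691 and 2879 in TFE3 KO cells. It rose from 1986, 1938 and 1847 to 2508, 2755 and 2434 in TFEB KO cells, and from 1997, 1809 and 1624 to 2808, 2674 and 2636 in DKO cells. The groups did not overlap in any of these clones, as in 58.4%, 47.2% and 57.1% of all genes, and the folds were 1.45, 1.33 and 1.50 (adjusted p = 1.15e-09, 9.14e-07 and 1.15e-10). PABPC1 rose 1.23-, 1.39- and 1.29-fold in TFE3 KO, TFEB KO and DKO cells (adjusted p = 2.43e-05, 5.71e-09 and 7.22e-07), and EIF4B rose 1.33-, 1.34- and 1.34-fold (adjusted p = 2.21e-04, 2.55e-04 and 2.11e-04).

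EIF4E fell in every knockout, from 54.4, 63.0 and 73.8 to 26.1, 25.6 and 22.7 in TFE3 KO cells. It fell from 58.1, 60.3 and 64.7 to 36.0, 40.0 and 40.7 in TFEB KO cells, and from 67.1, 65.4 and 71.1 to 33.5, 28.1 and 32.7 in DKO cells. These were decreases of 2.50-, 1.55- and 2.13-fold (adjusted p = 1.17e-13, 1.52e-05 and 3.94e-11), and past 2-fold in TFE3 KO and DKO cells, as for 11.7% and 11.1% of genes, and not in TFEB KO cells, where 5.02% of genes were. EIF4EBP1 fell 1.56-, 1.65- and 1.53-fold (adjusted p = 4.96e-07, 7.49e-08 and 1.30e-06). Its Torin1 values were 41.3, 43.4 and 46.4 in TFE3 KO, 50.7, 49.3 and 49.3 in TFEB KO and 46.9, 41.0 and 45.5 in DKO cells, all below every control library of any genotype.

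EEF1G, EEF1A1 and TPT1 were called with Torin1 in TFE3 KO and DKO cells, EIF3E in TFEB KO cells and EEF1B2 in no clone. EEF1G rose in TFE3 KO cells, 1.17-fold (adjusted p = 0.00222), and in DKO cells, 1.11-fold (adjusted p = 0.0348), and in TFEB KO cells its values were 1007, 999.9 and 900.0 in control and 924, 979 and 1024 with Torin1. TPT1 rose 1.16-fold in TFE3 KO (adjusted p = 0.00229) and 1.13-fold in DKO cells (adjusted p = 0.0106), and measured 1827, 1946 and 1771 and then 1848, 1916 and 1833 in TFEB KO cells. EEF1A1 rose 1.78-fold in TFE3 KO cells, where its Torin1 libraries spread from 112 to 206 (adjusted p = 5.82e-04), and 1.39-fold in DKO cells (adjusted p = 0.0302). The log2 differences of EEF1B2 were 0.10 ± 0.07 (SE), 0.14 ± 0.07 (SE) and 0.09 ± 0.07 (SE) in TFE3 KO, TFEB KO and DKO cells (adjusted p = 0.225, 0.115 and 0.295). With every library at the same total EEF1B2 was called higher with Torin1 in TFEB KO (0.20, 0.0167) and WT cells (0.20, 0.0249), and EEF1A1 in TFEB KO cells (0.47, 0.0420). EIF3E was called in TFEB KO cells (1.50-fold, adjusted p = 0.0250), although its control values of 75.4, 112 and 144 overlapped the Torin1 values of 164, 134 and 188. The DKO calls of EEF1G and EEF1A1 were each lost without any 1 of 4 libraries. For EEF1G these were DKO control replicates 2 and 3 and DKO Torin1 replicates 1 and 2 (log2 0.12 to 0.15, adjusted p = 0.0859 to 0.142), and for EEF1A1 DKO control replicates 1 and 2 and DKO Torin1 replicates 1 and 3 (log2 0.35 to 0.50, adjusted p = 0.0556 to 0.131). That of TPT1 was lost without DKO control replicate 2 (0.13, 0.0918), and that of EIF3E without TFEB KO control replicate 1 (0.34, 0.133), TFEB KO Torin1 replicate 1 (0.57, 0.0633) or replicate 3 (0.47, 0.107).

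The difference between each knockout's Torin1 response and that of WT cells was tested as an interaction in limma. None of the 10 members was called in any of the 3 tests, where 1.06%, 1.16% and 0.506% of genes were called for TFE3 KO, TFEB KO and DKO cells, and edgeR and DESeq2 on recovered reads also called 0. At an unadjusted p under 0.05 the number of members was 0, 3 and 0 (10.7%, 13.6% and 9.82% of all genes), and with edgeR it was 1, 1 and 0 and with DESeq2 0, 3 and 0. The largest such difference was that of EIF4E in TFEB KO cells, whose fall was smaller than in WT cells by 0.52 ± 0.17 (SE) on the log2 scale (95% confidence interval 0.17 to 0.86, adjusted p = 0.133). EEF1G (-0.20 ± 0.09 (SE), adjusted p = 0.339) and PABPC1 (0.19 ± 0.09 (SE), adjusted p = 0.341) were the others in that clone. For EEF2 the 95% confidence intervals of the difference from the WT response were -0.21 to 0.18 in TFE3 KO, -0.33 to 0.06 in TFEB KO and -0.16 to 0.23 in DKO cells, and for EIF4B -0.21 to 0.36, -0.19 to 0.37 and -0.20 to 0.36.

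Without treatment the knockout clones differed from WT cells in few of these genes. Genotype and the unlike times given for the controls cannot be told apart here. The number called was 3 in TFE3 KO cells (9.41% of all genes called), 2 in TFEB KO cells (14.6%) and 3 in DKO cells (13.1%). EEF1B2 was 1.61-fold lower in TFEB KO cells, at 463, 497 and 429 against 831, 685 and 723 in WT cells (log2 -0.69 ± 0.07 (SE), adjusted p = 5.63e-10). In TFE3 KO cells it measured 869.6, 853 and 914, and in DKO cells, which lack TFEB as well, 838, 835 and 942. No library of either clone overlapped the TFEB KO libraries (42.8% of genes had no overlap between TFE3 KO and TFEB KO libraries), and TFE3 KO was 1.90-fold above TFEB KO (log2 0.93 ± 0.07 (SE), adjusted p = 8.07e-15). Against WT cells EEF1B2 was 1.18-fold higher in TFE3 KO (adjusted p = 0.0204) and 1.17-fold higher in DKO cells (adjusted p = 0.0233). Those rises were lost without WT control replicate 2 or 3, without TFE3 KO control replicate 1 or 3 for the first (log2 0.18 to 0.25, adjusted p = 0.0519 to 0.153) and without DKO control replicate 3 for the second (log2 0.17 to 0.21, adjusted p = 0.0973 to 0.174).

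EIF4EBP1 was lower in both clones that lack TFE3. It measured 69.9, 63.2 and 72.7 in TFE3 KO and 59.4, 72.2 and 74.0 in DKO cells against 99.6, 92.6 and 96.4 in WT cells, 1.40- and 1.40-fold lower (adjusted p = 5.30e-04 and 3.38e-04). In TFEB KO cells its values of 72.4, 83.0 and 94.5 overlapped those of WT cells (log2 -0.21 ± 0.10 (SE), adjusted p = 0.148). The direct difference between TFE3 KO and TFEB KO cells was -0.27 ± 0.10 (SE) on the log2 scale (adjusted p = 0.0338) and was not called without TFEB KO control replicate 2 or 3 or TFE3 KO control replicate 1 or 2 (log2 -0.29 to -0.18, adjusted p = 0.0576 to 0.232). PABPC1 was lower in TFE3 KO cells, at 1162, 1216 and 1202, than in WT cells (1.22-fold, adjusted p = 5.88e-04) and than in TFEB KO cells (1.21-fold, adjusted p = 3.40e-04). DKO cells, which also lack TFE3, had PABPC1 values of 1611, 1586 and 1636, all above those of TFE3 KO cells.

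Smaller differences between untreated clones depended on single libraries. TPT1 in TFEB KO cells, at 1827, 1946 and 1771, was 1.16-fold below WT cells (adjusted p = 0.0102), a call lost without WT control replicate 1 (log2 -0.13, adjusted p = 0.124) or TFEB KO control replicate 3 (-0.18, 0.0527), and when every library was rescaled to the same total (-0.12, 0.147). EIF4B in DKO cells, at 94.4, 89.8 and 103, was 1.21-fold above WT cells (adjusted p = 0.0432), a call lost without WT control replicate 2 or 3 or DKO control replicate 1 or 3 (log2 0.21 to 0.29, adjusted p = 0.0692 to 0.233). Between TFE3 KO and TFEB KO cells 5 members were called, where 29.9% of genes were. EEF1G (1.16-fold, adjusted p = 0.00609) and TPT1 (1.12-fold, adjusted p = 0.0349) were higher in TFE3 KO cells. The EEF1G call was lost without TFEB KO control replicate 3 (log2 0.17, adjusted p = 0.0595), and that of TPT1 without TFEB KO control replicate 1 or 3 or TFE3 KO control replicate 2 or 3 (log2 0.13 to 0.17, adjusted p = 0.0614 to 0.153). With every library at the same total both were lost (EEF1G log2 0.13, adjusted p = 0.109, and TPT1 log2 0.07, adjusted p = 0.387), which left 1 member higher and 2 lower instead of 3 and 2. Untreated EIF4E did not differ detectably from WT cells in any clone, with 95% confidence intervals of the log2 difference of -0.22 to 0.24, -0.27 to 0.19 and -0.12 to 0.34 in TFE3 KO, TFEB KO and DKO cells.

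**Figure D3:**
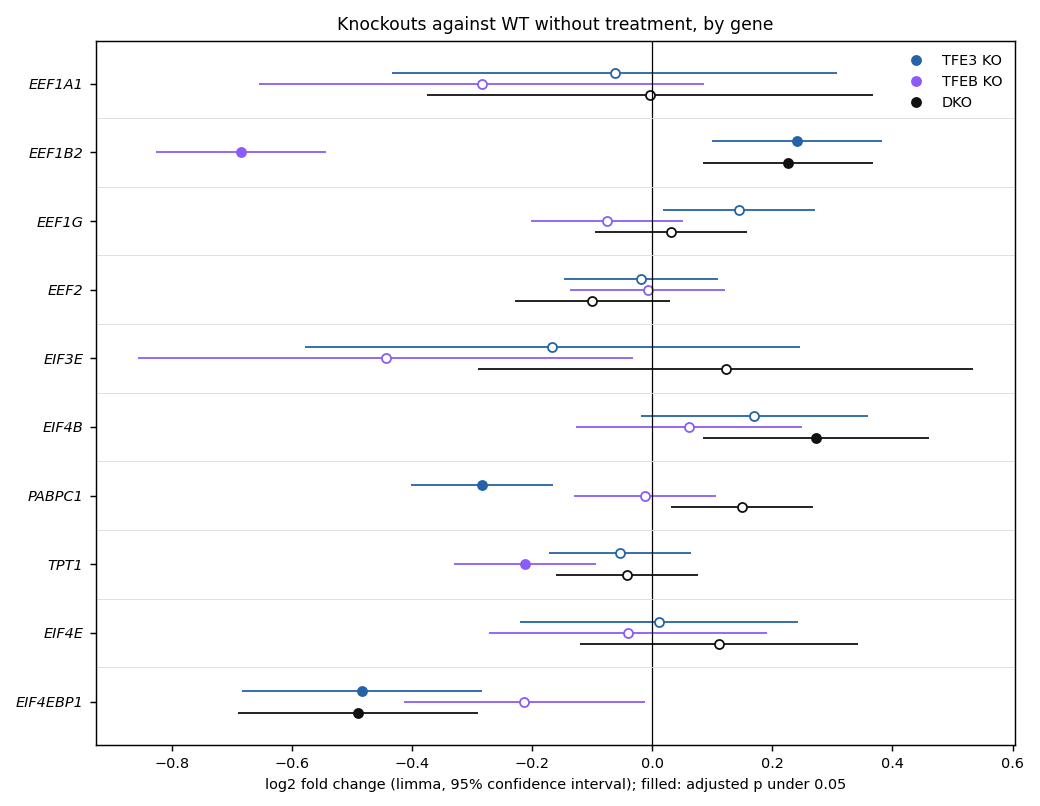
Log2 fold changes (x axis) of the 10 genes (y axis) in untreated TFE3 KO, TFEB KO and DKO cells against untreated WT cells, with 95% confidence intervals from limma and filled symbols at an adjusted p under 0.05. EEF1B2 lies left of 0 in TFEB KO cells and right of it in the other clones, and EIF4EBP1 is called lower in TFE3 KO and DKO cells.

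With Torin1 on both sides, 1 member differed between TFE3 KO and WT cells (9.64% of genes), 4 between TFEB KO and WT cells (18%, 9.39% higher and 8.56% lower) and 2 between DKO and WT cells (12.1%). EEF1B2 stayed lower in TFEB KO cells, at 483, 505 and 540.4 against 852 and 815 in WT cells (1.64-fold, adjusted p = 4.64e-09). EEF1G was 1.21-fold and TPT1 1.22-fold lower in TFEB KO cells (adjusted p = 0.00434 and 0.00180). EIF4E was 1.39-fold higher there (adjusted p = 0.00701), a call lost without WT Torin1 replicate 3 (log2 0.43, adjusted p = 0.0899) and with the duplicated column as a WT Torin1 library (0.20, 0.455). The EEF1G call was lost without WT Torin1 replicate 3 (-0.24, 0.0872) and with every library at the same total (-0.16, 0.0908), where PABPC1 was called in its place, higher in TFEB KO cells (0.29, 0.000859), so that 2 members were higher and 2 lower instead of 1 and 3. PABPC1 was 1.21-fold lower in TFE3 KO cells (adjusted p = 0.00409), not called without WT Torin1 replicate 2 (-0.25, 0.0757). In DKO cells EIF4B and PABPC1 were 1.28- and 1.17-fold higher (adjusted p = 0.0192 and 0.0152), and neither was called without WT Torin1 replicate 2 or 3 or DKO Torin1 replicate 1, nor EIF4B without DKO Torin1 replicate 3 (log2 0.20 to 0.38, adjusted p = 0.0642 to 0.155), nor with the duplicated column as a WT Torin1 library (EIF4B 0.20, 0.233, and PABPC1 0.13, 0.222).

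Other genes with TOP mRNAs are set beside the members as counts. The shares of all genes beside these counts are on the deposited scale, and those at an equal total are not reported here. Over all genes tested 20.5% rose and 23.4% fell with Torin1 in WT, 25.4% and 26% in TFE3 KO, 17.4% and 21% in TFEB KO and 25.4% and 26.2% in DKO cells. Of the 79 cytosolic ribosomal protein genes, 46 rose and 2 fell with Torin1 in WT cells, 67 rose and 2 fell in TFE3 KO, 37 rose and 2 fell in TFEB KO and 54 rose and 1 fell in DKO cells. Their median log2 changes were 0.22, 0.30, 0.17 and 0.25, and those of the 8 TOP members 0.31, 0.33, 0.42 and 0.35, against 0.00, 0.02, 0.00 and 0.02 over all genes tested. In HBSS 32 ribosomal protein genes rose and 2 fell (median 0.18), against 23.6% and 24.7% of all genes, where the median of the 8 members was 0.44 and that of all genes -0.03. That HBSS count depended on the scaling: with every library at the same total 14 rose and 6 fell, the median of all genes was -0.12, that of the ribosomal protein genes 0.07 and that of the 8 members 0.33, while the members' calls remained 5 higher and 1 lower. RPS26 was the ribosomal protein gene with the largest change by size in both, and it fell, by 0.91 in HBSS and by 0.77 with Torin1 on the log2 scale in WT cells. Of 20 other non-ribosomal TOP transcripts, 9 rose and 1 fell in HBSS (5 and 3 at the same total) and 8 rose and none fell with Torin1 in WT cells. GLTSCR2, a nucleolar ribosome biogenesis factor, led them with Torin1 (log2 0.54), and EEF1A2, the eEF1A paralogue of muscle and neurons, in HBSS, at few reads (means of 1.28 in control and 2.67 in HBSS).

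In the untreated TFEB KO clone 55 of the 79 ribosomal protein genes were lower than in WT cells and none was higher, where 7.18% of all genes were lower and 7.46% higher. Their median log2 difference was -0.23, against -0.14 for the 8 TOP members and 0.00 for all genes. With every library at the same total 21 were lower and none higher (median -0.14), and the median of all genes moved to 0.08. In TFE3 KO cells 8 were higher and 3 lower than in WT cells (median 0.06), where 3.57% and 5.84% of all genes were, and in DKO cells 3 were higher and 6 lower (median -0.01), where 5.64% and 7.49% were. Between TFE3 KO and TFEB KO cells 63 were higher in TFE3 KO cells and none lower (median 0.33), where 14.3% and 15.6% of all genes were, and 49 and none at the same total. These shares of all genes are also on the deposited scale. Clone and genotype cannot be told apart here.

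Other translation genes were counted by role, where 23.6% of all genes tested rose and 24.7% fell in HBSS, and 20.5% rose and 23.4% fell with Torin1 in WT cells. Of the 11 other eIF3 subunits in the table, 3 rose and 1 fell both in HBSS and with Torin1 in WT cells, and EIF3A, the largest subunit, led them with log2 changes of 1.02 and 0.64. Of 13 further genes of the cap complex and its control, 4 rose and 4 fell in HBSS, and 3 rose and 7 fell with Torin1. PDCD4, an inhibitor of the helicase eIF4A, rose by the most of these in both, with log2 changes of 1.45 and 1.69. Among 14 eIF2 and eIF2B genes 3 rose and 5 fell in HBSS and 3 rose and 4 fell with Torin1, led by EIF2B3, a subunit of the exchange factor eIF2B (-1.48 in HBSS), and EIF2S1, the alpha subunit of eIF2 (-0.78 with Torin1). Of 9 start-site and subunit-joining factors 2 rose and 5 fell in HBSS, among them EIF5, which promotes GTP hydrolysis by eIF2 (-1.38), and 1 rose and 4 fell with Torin1, among them EIF1AX, which helps the scanning ribosome find the start codon (-0.72).

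The same shares of all genes apply to the smaller lists, 23.6% higher and 24.7% lower in HBSS and 20.5% and 23.4% with Torin1. Of 6 termination and recycling genes, 5 fell and 1 rose with Torin1 in WT cells and 2 fell in HBSS. PELO, a rescue factor for stalled ribosomes, fell most with Torin1, from a mean of 11.3 to 4.24, a log2 change of -1.22, and GSPT2, a relative of the release factor eRF3, led in HBSS, with a mean of 4.78 in control and 2.11 in HBSS. The lists share genes, and EEF1A2, counted above among the other TOP transcripts, was the 1 other elongation factor gene that rose in HBSS. Of 12 other elongation factor genes 1 rose and 4 fell in HBSS, and 1 rose and 6 fell with Torin1. N6AMT2, an eEF1A methyltransferase, led them with means of 1.58 in control and 0.119 with Torin1, and was at 0 reads in both HBSS libraries, the treated means lying below the floor of 3 reads. Of 5 poly(A)-binding genes other than PABPC1, 2 rose and none fell in either, led by PAIP2B, an inhibitor of poly(A)-binding protein, whose mean went from 1.76 in control to 5.01 in HBSS and 5.66 with Torin1. Of 14 regulators of TOP mRNAs and mTORC1, 7 rose and none fell in HBSS (median 0.33), and none rose and 5 fell with Torin1 (median -0.18). TIAL1, an RNA-binding protein of stress granules, led them in HBSS (log2 0.83) and LARP1B, a relative of LARP1, with Torin1 (-0.95).

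**Figure D4:**
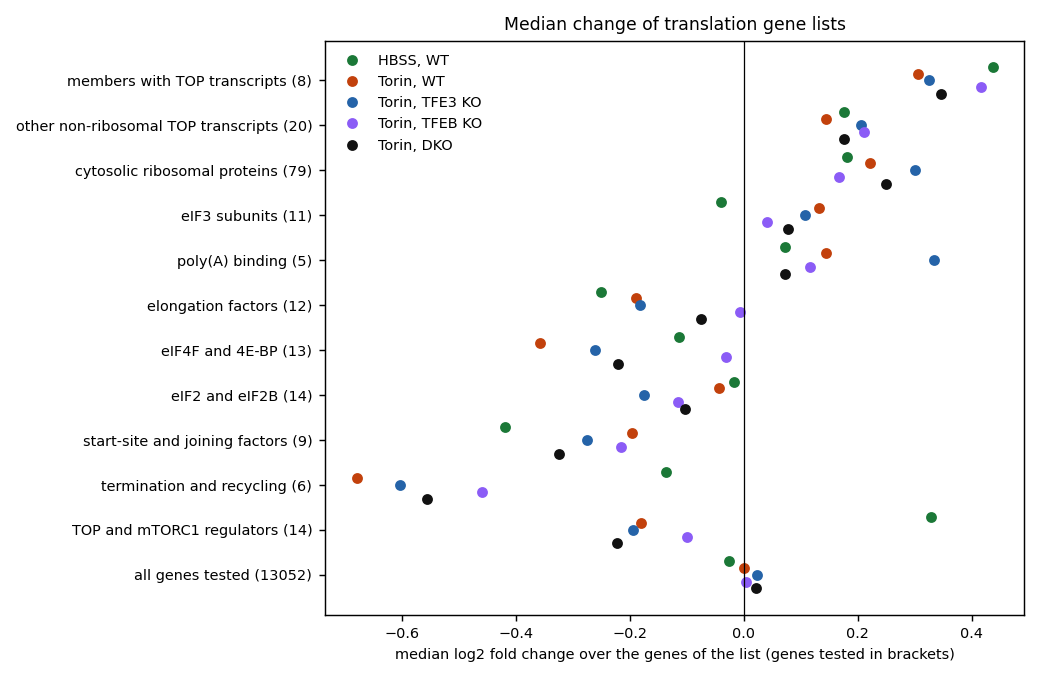
Median log2 fold change (x axis) over the genes of each list (y axis, genes tested in brackets) in HBSS or Torin1 against the control of the same genotype, 1 point per comparison. The 3 lists of TOP transcripts and the poly(A)-binding list lie right of 0 in all 5 comparisons. The regulators of TOP mRNAs and mTORC1 lie right of 0 in HBSS and left of it with Torin1.

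Across the 25 libraries the members fell into unlike profiles, given here as Pearson correlations of log2 values over libraries that share groups. EIF4B (r = 0.87), EEF1A1 (0.84), EIF3E (0.83) and TPT1 (0.80) followed the mean of the 8 TOP members most closely, a mean that contains them, and EEF1B2 (0.48) and PABPC1 (0.59) least of the 8. EIF4E ran against that mean (r = -0.76). Among the 5 other genes most like the mean were the ribosomal protein genes RPL13 (0.955) and RPL4 (0.954), GNB2L1 (0.944), which encodes the ribosome-bound scaffold RACK1, and CIR1 (0.940). Those most like EIF4EBP1 were YARS, the cytosolic tyrosyl-tRNA synthetase (0.955), GPT2, a mitochondrial alanine transaminase (0.954), NANS (0.952), CAMTA1 (0.951) and IDH1, the cytosolic isocitrate dehydrogenase (0.950).

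Among the 5 genes most like EIF4E were PTGES3, a co-chaperone of HSP90 (0.968), MCM10, a DNA replication factor (0.962), DDIAS (0.961) and MIS12, a kinetochore protein (0.960), and EIF4E ran against EEF2 (r = -0.93). No test was made of these correlations.

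The levels of EIF4EBP1 fell into an order in which neighbouring control groups overlapped, as did DKO Torin1 and TFE3 KO Torin1. WT HBSS was highest at 144 ± 0.680 (SD, n = 2), then WT control at 96.2 ± 3.48 (SD, n = 3) and TFEB KO control at 83.3 ± 11.0 (SD, n = 3), whose libraries overlapped. TFE3 KO control, at 68.6 ± 4.88 (SD, n = 3), and DKO control, at 68.5 ± 7.99 (SD, n = 3), overlapped each other and TFEB KO control. The Torin1 groups came last, from 52.3 ± 1.59 (SD, n = 2) in WT cells to 43.7 ± 2.54 (SD, n = 3) in TFE3 KO cells. For EIF4E the 4 untreated groups, with means of 61.0 to 67.9, overlapped their neighbours, WT HBSS followed at 42.9 ± 7.35 (SD, n = 2) and overlapped TFEB KO Torin1 at 38.9 ± 2.53 (SD, n = 3), and the other Torin1 groups had means of 24.8 to 31.4.

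Summed over the 10 genes, the share of gene-assigned reads does not depend on the scaling factor. It was 0.770% ± 0.0011 (SD, n = 3) in WT control, 0.918% ± 0.0059 (n = 2) in WT HBSS and 0.952% ± 0.0096 (n = 2) in WT Torin1 libraries. TFE3 KO cells went from 0.755% ± 0.0094 to 0.940% ± 0.014, TFEB KO cells from 0.747% ± 0.011 to 0.923% ± 0.011 and DKO cells from 0.793% ± 0.023 to 1.01% ± 0.022 with Torin1 (SD, n = 3 each). In each genotype every treated library lay above every control library. The sum is weighted to the abundant members and does not show the fall of EIF4E. In WT control replicate 1 TPT1 held 14520 and EEF2 10450 reads, against 606 for EIF4EBP1 and 400 for EIF4E.

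Several members have near-identical copies in the genome, and how reads shared with them were counted is not given in the sources used here. GENCODE v44 names 49 pseudogenes of EEF1A1, 15 of TPT1, 13 of PABPC1, 9 of EIF4B and 8 each of EEF1B2 and EEF1G, 5 of EIF4E, 3 of EIF3E, 1 of EIF4EBP1 and none of EEF2, and none of these has a row in the table. The levels of EEF1A1, 65.0 to 206 over the 25 libraries, are uncertain for this reason. EEF1B2, EEF2 and TPT1 are hosts of small nucleolar RNAs in their introns (snoZ196, SNORD51 and SNORA41, then SNORD37, then SNORA31B and SNORA31). EEF1A1 overlaps MTO1 and EEF1A1-AS1, and EIF4B overlaps TNS2-AS1, on the opposite strand. TPT1, EIF4E and EIF3E each overlap an opposite-strand gene that has no symbol. Whether strand was used in counting is not given either.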

How the data were processed

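Polyadenylated RNA of 501mel cells was sequenced as 3′ end libraries (QuantSeq Forward). Per the submitters' notes and the study's methods, the authors trimmed reads with trim_galore and cutadapt 2.10, checked them with FastQC 0.11.9, mapped them to hg38 with STAR 2.7.8a and normalised the counts with edgeR. The counter, annotation, scaling and row filter are not given in the sources used here. For each gene symbol the authors deposited a normalised signal (CPM over a library factor), with no gene identifiers. Each value was a whole multiple of 1 read (100% within 0.01 reads), so read counts were recovered for the count tests and for depth. Reads came without molecular identifiers.

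The 10 members and the gene lists were chosen with earlier results of these data known. All 27 columns were mapped to the labels and 25 were used. The table holds normalised values rather than counts, so the main test was limma 3.58.1 (R 4.3.3) on log2(value + 1), with a mean per group, a trended robust prior, 2-sided tests and Benjamini-Hochberg adjustment over the 13052 genes that reached a value of 1 in 3 or more libraries. The interaction tests used the same fit. Genes outside the members were named by a rule, the gene of each list with the largest change by size in a treatment, and the 5 most like each profile, of which some are not reported here. Alternatives were no filter, a minimum of 5, a pseudocount of 0.1, median-of-ratios scaling, an equal total per library, edgeR 4.0.16 and DESeq2 1.42.0 on recovered reads, the replicate number as a block, only the compared libraries, the duplicated column in either group, and leaving out each library. The fits were tested on simulated data. Motif searches used RefSeq starts of GRCh38.p14, and gene overlaps used GENCODE v44.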

Additional observations from a re-analysis of the deposited data

How the results depend on the processing

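Of the 62 calls of single members, none changed direction in any alternative. All 62 were kept with no filter, a minimum of 5, a pseudocount of 0.1 and the replicate block, 61 with median-of-ratios scaling and with DESeq2, 60 with edgeR, and 57 with an equal total per library and with only the compared libraries fitted. The last lost EIF3E with Torin1 in TFEB KO, EEF1G with Torin1 in DKO, TPT1 in untreated TFEB KO and EEF1B2 and EIF4B in untreated DKO cells. Counts of members called moved by over 1.5 times as follows, and the cause was not tested. With an equal total per library, TFEB KO against WT cells without drug gave 1 instead of 2 and TFE3 KO against TFEB KO cells 3 instead of 5. With only the compared libraries, untreated TFEB KO and DKO cells against WT cells gave 1 each instead of 2 and 3. With the duplicated column as WT Torin1 replicate 1, TFE3 KO against WT cells under Torin1 gave 4 instead of 1, and HBSS against Torin1 gave 3 instead of 6. As WT HBSS replicate 3 the column kept 14 of 14 calls, and as WT Torin1 replicate 1 it kept 12 of 19. When each library was left out in turn, 286 of 339 checks of a single call kept it and 53 lost it. The Torin1 count in WT cells was 9 with edgeR and 8 with only the compared libraries, against 6.

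Leaving out 1 library gave 7 to 8 members for HBSS, and for Torin1 4 to 8 in WT, 8 to 9 in TFE3 KO, 5 to 7 in TFEB KO and 5 to 7 in DKO cells (5 without DKO control replicate 2). Without drug it gave 2 to 3 for TFE3 KO, 1 to 3 for TFEB KO (1 without WT control replicate 1), 1 to 4 for DKO (fewest without WT control replicate 2 or 3 or DKO control replicate 3) and 2 to 4 for TFE3 KO against TFEB KO cells (lowest without TFEB KO control replicate 3 or TFE3 KO control replicate 2). Under Torin1 it gave 0 to 2 for TFE3 KO (moved without WT Torin1 replicate 2 or TFE3 KO Torin1 replicate 3), 2 to 4 for TFEB KO (WT Torin1 replicate 3) and 0 to 2 for DKO cells (WT Torin1 replicates 2 and 3, DKO Torin1 replicates 1 and 3). It gave 5 in each case for HBSS against Torin1, and 0 to 0 for the interactions.

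The replicate numbers do not pair the libraries: same-numbered deviations correlated at a mean of 0.0047, 4 of 92 pairs passed 0.1, and 9 of 25 libraries correlated best with their own number. With the replicate block 9 members were called in HBSS against 8. With 2 libraries in WT Torin1 and 3 in WT control, the smallest difference called among the members was 0.21 on the log2 scale (EEF1G).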
